A study of Mus musculus with 6 samples.

Results

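Imprinted genes are a set of 38 genes of the mouse that are known to be expressed mainly from the copy inherited from 1 parent, at least in some tissues. Members were found by gene symbol through the RefSeq entries of the array's probes, with the brightest probe taken for a gene that had several. Of the list, 37 were matched to a probe, out of 18516 genes that the array names, and H19 was not analysed here. Of the 37, 34 were bright enough to be tested, and Usp29, Zim1 and Nap1l5 were not well above background on any of the 6 arrays. The list of 38 holds 20 paternally expressed genes, 17 maternally expressed genes and Gnas, which gives transcripts from either parental copy. In 6 clusters several members lie together, and the other 13 members stand alone in their locus.

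Total RNA of mouse embryonic stem cells, pluripotent cells grown from the blastocyst, was measured on 6 Agilent arrays with 1 colour, 2 arrays in each of 3 groups. The wild-type group (WT) had the genotype 15-1+/+, 15-2+/+ and no transduction. Both knockout groups were 15-1CT/CT, 15-2-/-, that is, they lacked Dppa2 (ECAT15-2) and carried a conditional targeted (CT) allele of its neighbour and paralogue Dppa4 (ECAT15-1) on both chromosomes. The mock knockout (15-2KO_mock) carried the empty vector piggyBac-CAG-IP, and the Flag15-2 knockout (15-2KO_Flag15-2) carried piggyBac-CAG-Flag15-2-IP, which makes Flag-tagged Dppa2 from the constitutive CAG promoter. All cells grew on gelatin in medium with 15% FCS and LIF and were taken after 3 days. Replicate 1 and replicate 2 came from blastocysts of different mothers, and each knockout line gave 1 mock and 1 Flag15-2 array. The mice were a mixture of 129Sv and C57/BL6, together with the unknown background of Cre or FLPe mice. Both comparisons with wild type therefore also hold the Dppa4 allele and the vector, while the comparison of Flag15-2 with mock knockout holds the same lines under different vectors.

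Genomic imprinting marks the maternal and paternal copies of a gene differently in the germ line, mostly by DNA methylation of a control region, and the embryo keeps that mark through the wave of demethylation that follows fertilisation. Many imprinted genes set the growth of the fetus and placenta: paternally expressed genes such as Igf2 tend to raise it, and maternally expressed genes such as Cdkn1c, Phlda2, Grb10 and Igf2r tend to limit it. Imprinted marks are known to be unstable in cultured embryonic stem cells, and to differ between lines and subclones. An array probe reads the RNA of both parental copies together, so that a level says nothing of the copy that was read.

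The promoters of 4 members are shown: Gatm and Peg3, which fell in the mock knockout, and Nnat and Plagl1, which differed most between the knockout lines. Capitals mark their CpG sites, where a methylation mark could lie. Each is the 250 bases before the RefSeq start site on GRCm38.p6, on the strand of the gene. Gatm lies at chr2:122611278-122611527 (minus strand, 17 CpG), Peg3 at chr7:6730420-6730669 (minus strand, 8 CpG), Nnat at chr2:157559828-157560077 (plus strand, 12 CpG) and Plagl1 at chr10:13090582-13090831 (plus strand, 19 CpG).
Gatm: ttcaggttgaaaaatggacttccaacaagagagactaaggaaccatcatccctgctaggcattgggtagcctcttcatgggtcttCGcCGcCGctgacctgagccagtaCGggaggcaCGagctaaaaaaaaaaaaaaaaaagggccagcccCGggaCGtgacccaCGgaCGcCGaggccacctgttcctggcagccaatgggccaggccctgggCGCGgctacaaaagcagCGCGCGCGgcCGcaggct
Peg3: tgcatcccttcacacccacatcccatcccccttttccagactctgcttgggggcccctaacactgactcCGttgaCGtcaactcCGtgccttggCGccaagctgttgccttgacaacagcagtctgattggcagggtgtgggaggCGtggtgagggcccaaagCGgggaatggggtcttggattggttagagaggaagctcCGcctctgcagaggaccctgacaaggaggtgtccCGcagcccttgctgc
Nnat: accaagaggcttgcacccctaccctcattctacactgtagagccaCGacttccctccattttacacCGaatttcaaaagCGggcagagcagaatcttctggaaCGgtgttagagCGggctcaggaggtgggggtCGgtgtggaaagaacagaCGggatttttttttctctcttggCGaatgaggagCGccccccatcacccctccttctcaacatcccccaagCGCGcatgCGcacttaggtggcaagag
Plagl1: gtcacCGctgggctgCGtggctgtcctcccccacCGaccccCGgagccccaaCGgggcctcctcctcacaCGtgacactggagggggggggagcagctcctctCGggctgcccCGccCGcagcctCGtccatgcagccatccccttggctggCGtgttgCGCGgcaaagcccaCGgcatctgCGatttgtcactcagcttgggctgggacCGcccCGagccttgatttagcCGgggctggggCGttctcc
The RefSeq table held 52 promoters of 32 members. Their median was 10 CpG sites, against 6 over all 32851 promoters of the table, with 8 for paternally and 15 for maternally expressed members. The 6-base motif TGCCGC, the core of the site that the imprint-keeping protein ZFP57 binds when it is methylated, was found on either strand in 7 of the 52 (13.5%) and in 8.68% of all promoters, and each match also holds a CpG site. Of the 4 promoters shown, only that of Plagl1 held it. The 7 promoters with the motif belonged to 6 members, since overlapping windows of Mest were counted separately. The windows of Peg3 and Usp29, genes transcribed away from each other, overlapped by 163 bases. Methylation was not measured in these samples.

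Levels are log2 of the background-subtracted signal relative to the 75th percentile of the same array, and a level of one gene is not compared with that of another. Between 55.9% and 60.4% of probes were well above background per array, and no spot was saturated. Dppa2 stood at 2.13 and 2.07 in wild type, at -2.09 and -2.0 in the mock knockout and at -0.05 and 0.35 in the Flag15-2 knockout. The groups did not overlap, with Flag15-2 between the others, and the probe was well above background on all 6 arrays. Dppa2 was 17.7-fold lower in mock knockout than in wild type (adjusted p = 0.00565, limma) and 4.59-fold higher in Flag15-2 than in mock knockout (adjusted p = 0.0268, and 0.0666 with a replicate block). The signal of its 1 probe returned only in part. In Flag15-2 knockout that signal was 3.87-fold lower than in wild type (adjusted p = 0.0409, and 0.0924 with a replicate block). The place of the probe on the transcript was not analysed here. Whether it reads the RNA of the vector and that of wild type alike is therefore not known. The 2 wild-type arrays are labelled as lines of different mothers, yet they differed by less than the scanner's own error: 0.442% of 14943 bright spots lay beyond its limit, against 22.2% in the mock and 24.7% in the Flag15-2 pair. They may therefore be 1 sample, and no SD is given for them. The planned test entered them as 2 arrays, and with their mean as 1 sample no member passed the threshold in any comparison (adjusted p over all features at least 0.122, 0.0982 and 0.349 for mock against wild type, Flag15-2 against mock and Flag15-2 against wild type), while 10, 5 and 6 of 34 members had an unadjusted p under 0.05. Y-linked Eif2s3y stood at 2.01 and 1.98 in wild type and between -7.85 and -7.15 in the knockout arrays, where it was not well above background, so that Y-linked RNA and the genotype cannot be told apart in a comparison with wild type. Both Flag15-2 arrays were on another slide than the other 4, so that slide and vector cannot be told apart either. Of 10 embryonic stem cell markers, 8 were matched and all 8 were well above background on every array.

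**Figure D1:**
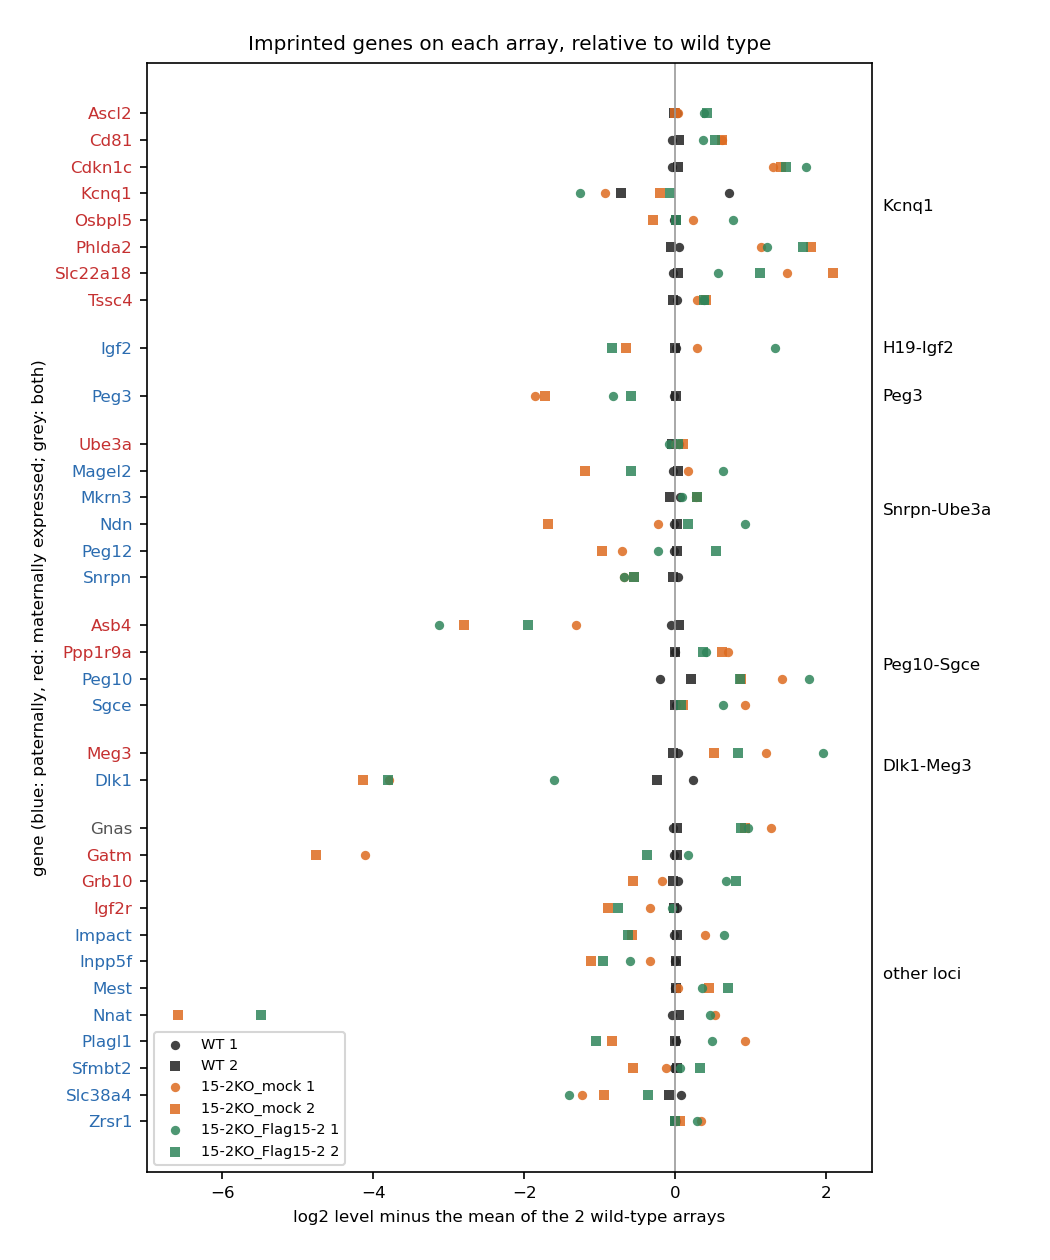
Each of the 34 tested imprinted genes on each array, as log2 level minus the mean of the 2 wild-type arrays (x axis), by cluster (right) and expressed copy (name colour), with circles for replicate 1 and squares for replicate 2. The wild-type points lie close to 0 apart from those of Kcnq1, which was well above background on 2 arrays, while Gatm lies more than 4 below 0 on both mock arrays and Nnat lies far below 0 on the arrays of line 2.

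In the mock knockout, 5 of the 34 members rose against wild type and 2 fell (adjusted p under 0.05, limma, adjusted over 18764 features), where 6.12% of all features were called. The 5 were Cdkn1c, Slc22a18, Cd81, Ppp1r9a and Gnas, and the 2 were Peg3 and Gatm. Of all features, 2.47% were higher and 3.65% lower, so that the members called lower were near the background share and those called higher were above it. The median difference of the 34 was -0.06 on the log2 scale, against 0.05 over all features. Differences of at least 2-fold were seen in 11 members (12.4% of all features), and the groups did not overlap in 25 (65.8% of all features). All 4 knockout arrays, of both vectors, lay above wild type in 12 of 34 members (24.7% of all features). They lay below it in 7 (17.9% of all features), so that this pattern, given for single genes below, was common.

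By parental copy, 4 of the 15 tested maternally expressed members rose and 1 fell, with a median of 0.05. Of the 18 tested paternally expressed members none rose and 1 fell, with a median of -0.43 and with 12 of 18 differences below 0. Gnas, the member with transcripts of either copy, rose. The difference between the maternally and paternally expressed sets was not tested.

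The Kcnq1 cluster on chromosome 7, a run of maternally expressed genes that the antisense RNA Kcnq1ot1 silences on the paternal copy, held 3 of the 5 members that rose. Of its 8 tested members 3 rose, none fell, and 6 of 8 differences were above 0, with a median of 0.48. Over all features 2.47% were called higher, 10217 of 18764 differences were above 0, and the median was 0.05. Members of 1 cluster are not independent. Cdkn1c, an inhibitor of cyclin-dependent kinases that restrains growth, had levels of 2.07 and 2.15 in wild type, 3.40 and 3.51 in mock knockout and 3.84 and 3.57 in Flag15-2 knockout. All 4 knockout arrays were above wild type, and mock and Flag15-2 arrays did not overlap. Cdkn1c was 2.54-fold higher in mock knockout (log2 1.34, SE 0.13, adjusted p = 0.0198, and 0.0506 with a replicate block).

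Slc22a18, a membrane transporter, had levels of -0.98 and -0.91 in wild type, 0.54 and 1.15 in mock knockout and -0.39 and 0.17 in Flag15-2 knockout. The mock arrays were the highest, and the Flag15-2 arrays lay between mock and wild type without overlap. It was 3.45-fold higher in mock knockout (log2 1.79, SE 0.29, adjusted p = 0.0468), and its call held with a replicate block (0.0467), the one member of the 5 that did. A dimmer second probe of Slc22a18, above background on all arrays, gave a log2 difference of 1.14, and with the mean of the gene's probes the adjusted p was 0.0624.

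Cd81, a tetraspanin of the cell surface, had levels of 5.18 and 5.27 in wild type, 5.84 on both mock arrays and 5.60 and 5.75 in Flag15-2 knockout. The knockout arrays were above wild type by a small margin that the replicates did not bridge, 1.53-fold in mock knockout (log2 0.62, SE 0.10, adjusted p = 0.0489, and 0.0715 with a replicate block). With quantile normalization the difference was 0.49 and the adjusted p 0.0594.

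Phlda2, which limits the growth of the placenta, had levels of 4.56 and 4.45 in wild type, 5.64 and 6.31 in mock knockout and 5.73 and 6.20 in Flag15-2 knockout. Every knockout array was above wild type, with line 2 above line 1 under both vectors, and the 2.76-fold difference (log2 1.47, SE 0.29) missed the threshold (adjusted p = 0.0632). A second probe of Phlda2 gave 1.41. The other 4 members of the cluster differed by between -0.57 and 0.35: Tssc4 was at 0.35 (adjusted p = 0.108), Ascl2, a transcription factor of the trophoblast, at 0.02, Osbpl5, an oxysterol-binding protein, at -0.03 and the potassium channel gene Kcnq1, well above background on 2 of 6 arrays, at -0.57. Kcnq1ot1 itself, from the list of other imprinted genes, stood at 0.97 and 0.96 in wild type, 1.15 and 1.04 in mock knockout and 1.05 and 1.02 in Flag15-2 knockout, a difference of 0.13 in mock knockout (adjusted p = 0.432).

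**Figure D2:**
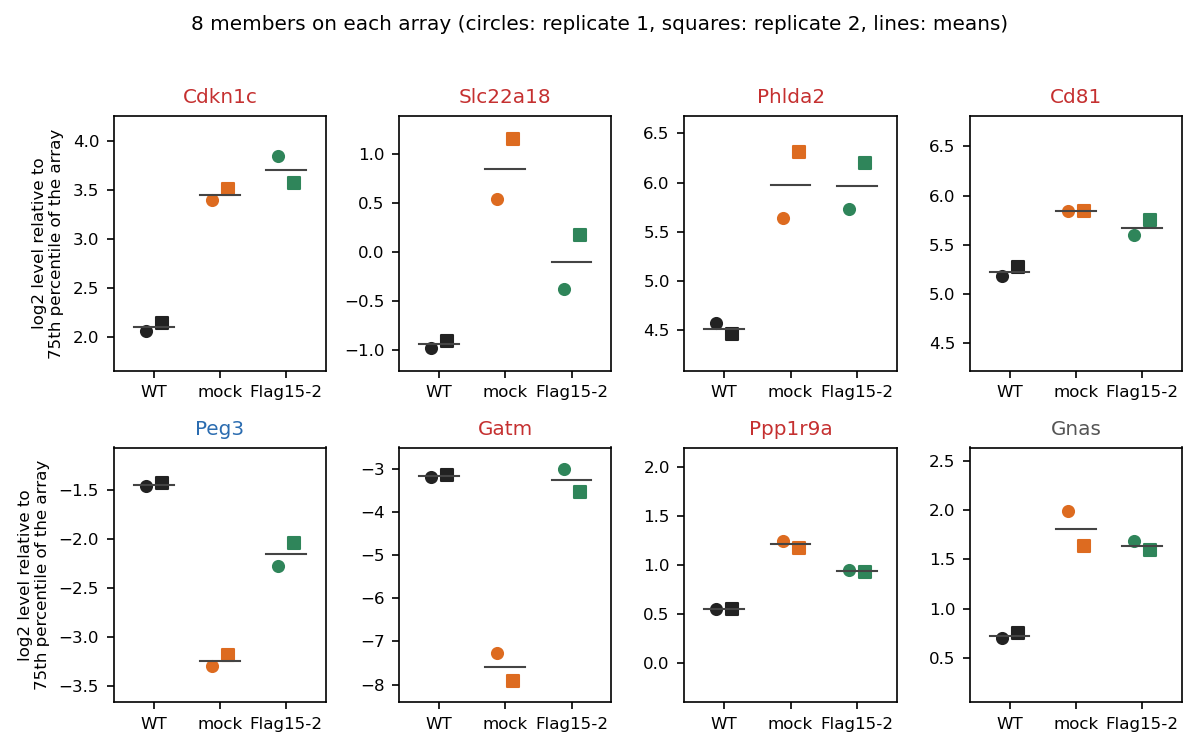
Levels of 8 members (y axes, log2 relative to the 75th percentile of the array, each panel on its own range) in wild type, mock and Flag15-2 knockout (x axis), with a line at each group's mean. Cdkn1c, Phlda2, Cd81, Ppp1r9a, Gnas and Slc22a18 stay above wild type under both vectors. The Flag15-2 arrays of Slc22a18, Cd81, Ppp1r9a and Peg3 lie between wild type and mock without overlap. Gatm is at its wild-type level under Flag15-2, at -3.0 and -3.54.

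Peg3, a paternally expressed zinc finger protein of the Peg3 cluster at the other end of chromosome 7, fell. Its levels were -1.46 and -1.44 in wild type, -3.30 and -3.18 in mock knockout and -2.28 and -2.04 in Flag15-2 knockout. The 3 groups did not overlap, with Flag15-2 between the others. Peg3 was 3.47-fold lower in mock knockout (log2 -1.79, SE 0.12, adjusted p = 0.0107, and 0.0273 with a replicate block), and a dimmer probe of the gene, well above background on 4 arrays, gave -2.14. Its neighbours Usp29, which shares the promoter region shown above, and Zim1 were not well above background on any array, so that Peg3 was the one gene of its cluster with a measured level.

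Gatm, the enzyme of the first step of creatine synthesis, which is imprinted in the placenta and yolk sac, fell as well. Its levels were -3.18 and -3.14 in wild type, -7.27 and -7.92 in mock knockout, where it was not well above background, and -3.0 and -3.54 in Flag15-2 knockout. Both mock arrays were thus below all others, and wild-type and Flag15-2 arrays overlapped. Gatm was at least 4.56-fold lower in mock knockout than in wild type (fitted log2 -4.43, SE 0.30, adjusted p = 0.00971, and 0.0247 with a replicate block). The bound sets the bright group's mean against the lowest signal well above background on each array of the dim group. With normexp background correction the fitted value was -1.24 (adjusted p = 0.0201).

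Gatm was not the only gene with this pattern. Of 13 tested markers of fibroblasts and feeder cells, Mmp2, Loxl1 and Fbn1 also fell in mock knockout and rose with Flag15-2. No marker of the list was called the other way. Of all features, 3.65% were called lower in mock knockout and 0.703% higher with Flag15-2. Against wild type, 1 of the 13 was called lower in Flag15-2 knockout (0.389% of all features). With a replicate block the adjusted p of the rise was 0.0573 for Mmp2, 0.0839 for Loxl1 and 0.0666 for Fbn1, none of them under the threshold. The summed signal of all 14 markers ran from 35.2 to 38.8 times the 75th percentile in wild type, from 22.2 to 31.0 in mock and from 21.4 to 30.6 in Flag15-2 knockout, with 8 to 13 of 14 well above background per array and Lum at background on all. Among the defining markers Col1a1 stood at 0.78 and 0.75 in wild type, -1.69 and -3.54 in mock and -1.56 and -3.87 in Flag15-2 knockout, and did not regain its wild-type level. Of 10 tested markers of primitive and visceral endoderm 1, Amn, was called lower in mock knockout, where 3.65% of all features were. A count of 1 among 10 cannot be told apart from that share. With Flag15-2 none of the 10 was called, but 9 differences from mock were above 0 with a median of 1.22, and 8 differences from wild type were above 0 with a median of 1.18. No mesoderm marker was called in any comparison. The summed signal of 9 trophoblast markers ran from 76.4 to 77.1 in wild type, from 26.5 to 47.5 in mock and from 42.8 to 141 in Flag15-2 knockout, with Elf5 at background on every array. The part of other cell types in the levels of Gatm and of the other members was not tested, and in bulk RNA fewer cells of a type and less RNA per cell cannot be told apart.

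Gnas, which encodes the stimulatory G protein subunit and several other products of a complex imprinted locus, had levels of 0.69 and 0.75 in wild type, 1.99 and 1.64 in mock and 1.69 and 1.59 in Flag15-2 knockout. All 4 knockout arrays were above wild type, and mock and Flag15-2 arrays overlapped. Gnas was 2.13-fold higher in mock knockout (log2 1.09, SE 0.15, adjusted p = 0.0357, and 0.0603 with a replicate block). The other 2 probes of Gnas were not well above background on any array, and which of the locus's products the measured probe reads was not analysed here.

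In the Peg10-Sgce cluster on chromosome 6, 1 of 4 members rose and the others moved in both directions. Ppp1r9a, a neuronal actin-binding protein also called neurabin, stood at 0.55 on both wild-type arrays, at 1.25 and 1.17 in mock and at 0.95 and 0.92 in Flag15-2 knockout. The groups formed 3 separate steps, and Ppp1r9a was 1.58-fold higher in mock knockout (log2 0.66, SE 0.09, adjusted p = 0.0345, and 0.0650 with a replicate block). Asb4, an ankyrin protein of vascular development, stood at -1.58 and -1.48 in wild type, -2.84 and -4.33 in mock and -4.66 and -3.48 in Flag15-2 knockout. All 4 knockout arrays were below wild type, 4.16-fold in mock knockout, but they spread over more than 1 log2 unit (adjusted p = 0.137).

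Peg10, a gene derived from a retrotransposon that the placenta needs, stood at -4.54 and -4.14 in wild type, -2.93 and -3.47 in mock and -2.57 and -3.48 in Flag15-2 knockout. The knockout arrays were above wild type, 2.20-fold in mock knockout, without passing the test (adjusted p = 0.160). Sgce, the epsilon-sarcoglycan that shares a control region with Peg10, differed by 0.51 (adjusted p = 0.409).

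At the Dlk1-Meg3 cluster on chromosome 12, which is known for variable silencing of Meg3 in cultured pluripotent cells, neither member passed the test. Meg3, a long non-coding RNA of the maternal copy, stood at -0.30 and -0.37 in wild type, 0.87 and 0.18 in mock and 1.62 and 0.49 in Flag15-2 knockout. All 4 knockout arrays were above wild type, and line 1 was above line 2 under both vectors (log2 0.86 in mock knockout, SE 0.45, adjusted p = 0.305). Dlk1, a paternally expressed ligand-like protein of the Notch family, could be measured on both wild-type arrays, on no mock array and on 1 Flag15-2 array. It was at least 7.17-fold lower in mock knockout than in wild type, with an adjusted p of 0.0612. Rian, a non-coding RNA downstream of Meg3 in the same cluster, was taken from the list of other imprinted genes after its values were seen. It stood at -4.77 and -6.66 in wild type, -4.27 and -5.16 in mock and -1.24 and -3.70 in Flag15-2 knockout. Line 1 was above line 2 under each vector. However, Rian was well above background on 5 of 6 arrays, and its wild-type arrays lay further apart than its mock arrays, in the same direction.

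In the Snrpn-Ube3a cluster on chromosome 7, the counterpart of the human Prader-Willi and Angelman region, none of 6 tested members passed the test, 4 of 6 differences were below 0, and the median was -0.57. Ndn, a MAGE-family growth suppressor of neurons, stood at -1.31 and -1.26 in wild type, -1.51 and -2.97 in mock and -0.35 and -1.11 in Flag15-2 knockout. Its mock arrays were the lowest and its Flag15-2 arrays the highest, but line 2 minus line 1 was -1.45 in mock and -0.75 in Flag15-2 knockout (log2 -0.96 in mock knockout, SE 0.56, adjusted p = 0.344). Snrpn, a protein of the spliceosome, came closest to the threshold: it was 1.53-fold lower in mock knockout (log2 -0.61, SE 0.11, adjusted p = 0.0517) and stood at 2.5 and 2.63 in Flag15-2 against 2.5 and 2.62 in mock knockout. Ube3a, the ubiquitin ligase expressed from the maternal copy in neurons, differed by 0.05, the ubiquitin ligase Mkrn3 by 0.28, Magel2 by -0.52 and Peg12, also called Frat3, by -0.83 (adjusted p = 0.159).

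The remaining tested members, Igf2 of the H19-Igf2 cluster and those that lie alone, did not pass the test in mock knockout. Slc38a4, an amino acid transporter expressed from the paternal copy, stood at 3.33 and 3.16 in wild type, 2.01 and 2.30 in mock and 1.84 and 2.89 in Flag15-2 knockout. All knockout arrays were below wild type, 2.12-fold in mock knockout (adjusted p = 0.166). Grb10, an adaptor that dampens insulin and IGF receptor signalling, stood at 3.92 and 3.86 in wild type, 3.72 and 3.34 in mock and 4.57 and 4.70 in Flag15-2 knockout. Its Flag15-2 arrays were the highest and its mock arrays the lowest, with a difference of -0.36 between mock and wild type (adjusted p = 0.238). Igf2r, the receptor that clears IGF2, differed by -0.61 (adjusted p = 0.302), and Mest, Zrsr1, Sfmbt2 and Inpp5f by between -0.73 and 0.24. Igf2, Plagl1 and Impact differed by -0.19, 0.04 and -0.09, and Nnat by -3.03 with an SE of 3.12, since their mock arrays lay far apart.

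**Figure D3:**
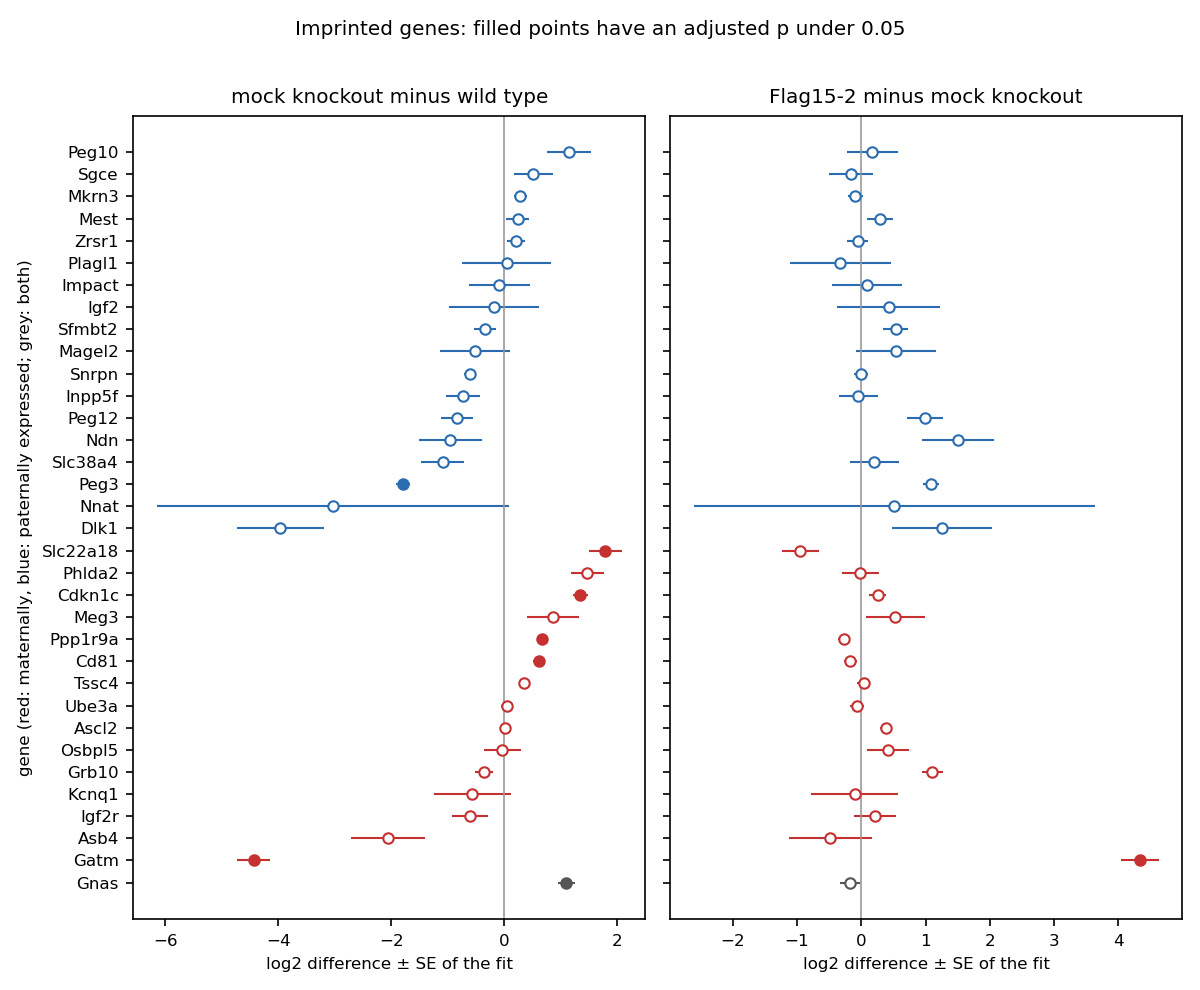
Log2 difference with the SE of the fit (x axes) for 34 members (y axis, red for maternally, blue for paternally expressed genes, grey for Gnas), for mock knockout minus wild type (left) and Flag15-2 minus mock knockout (right), with filled points for an adjusted p under 0.05. There are 7 filled points on the left and 1, Gatm, on the right, and Nnat has the widest error bar, an SE of 3.12.

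The calls of mock knockout against wild type moved with the arrays that entered the test. A replicate block left 1 member higher and 2 lower, and leaving out any 1 of the 6 arrays left 0 or 1 higher. Peg3 and Gatm were called lower without any 1 of the 4 knockout arrays (adjusted p 0.0210 to 0.0477 for Peg3 and 0.0236 to 0.0293 for Gatm), and not called without either wild-type array.

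Flag15-2 against mock knockout compares the same lines with and without the return of Dppa2, on different slides, and the main fit did not pair the arrays of a line. Gatm alone rose and none fell, where 0.741% of all features were called, 0.703% higher and 0.0373% lower. Gatm was at least 4.25-fold higher in Flag15-2 knockout (fitted log2 4.33, SE 0.30, adjusted p = 0.0235), but its adjusted p was 0.0599 with a replicate block, and leaving out any 1 array took it above the threshold (0.0525 to 0.156). In a limma fit of the 4 knockout arrays alone with a replicate block, which pairs the arrays of a line, the adjusted p of Gatm was 0.102. The median difference of the 34 members was 0.19, against -0.01 over all features, 5 members differed by at least 2-fold (7.62% of all features), and the groups did not overlap in 11 (37.1% of all features).

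The members next in size did not pass the test. Ndn was 2.84-fold higher with Flag15-2 (log2 1.51, SE 0.56, adjusted p = 0.369), Grb10 2.15-fold (log2 1.11, SE 0.16, adjusted p = 0.0910) and Peg3 2.12-fold (log2 1.08, SE 0.12, adjusted p = 0.0620). The 2 dimmer probes of Grb10, both well above background on all arrays, gave 1.09 and 1.39. Slc22a18 was 1.93-fold lower (log2 -0.95, SE 0.29, adjusted p = 0.301). Of the 5 members that rose in mock knockout, the differences with Flag15-2 were 0.26 for Cdkn1c, -0.95 for Slc22a18, -0.17 for Cd81, -0.27 for Ppp1r9a and -0.17 for Gnas. These comparisons share the mock arrays, so that a sign opposite to that of the first comparison is not independent of it.

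Against wild type, the Flag15-2 knockout had 1 member called higher, Cdkn1c, and none lower, where 0.533% of all features were called, 0.144% higher and 0.389% lower. Cdkn1c was 3.03-fold higher (log2 1.60, SE 0.13, adjusted p = 0.0402, and 0.103 with a replicate block), and leaving out any 1 of the 6 arrays ended the call. Gatm differed from wild type by -0.10 (SE 0.30). Peg3 differed by -0.71 (adjusted p = 0.0890), Slc22a18 by 0.84 (adjusted p = 0.212), Gnas by 0.92 (adjusted p = 0.0824) and Phlda2 by 1.45 (adjusted p = 0.102). The median of the members was 0.19, against 0.03 over all features, 7 differed by at least 2-fold (8.55% of all features), and the groups did not overlap in 23 of 34 (60.3% of all features).

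The knockout lines were also compared with each other under both vectors, and this comparison and the genes named for it were chosen after the levels were seen. The arrays of a pair differed by a median log2 size of 0.05 over the members in wild type, 0.49 in mock and 0.55 in Flag15-2 knockout, where all features had 0.06, 0.24 and 0.27. A gap of at least 2-fold within the pair was seen in 1, 5 and 10 of 34 members, against 2.55%, 11.5% and 11.1% of all features. Line 1 was above line 2 on both pairs of arrays, without overlap, in 14 of 34 members (23.9% of all features), of which 10 were paternally and 3 maternally expressed. The reverse held in 7 members (28.3% of all features), and in the other 13 the lines overlapped (47.8% of all features). Among those 13 was Asb4, for which line 2 minus line 1 was -1.49 in mock and 1.18 in Flag15-2 knockout. Markers of other cell types also differed between the lines. In line 1 the summed signal of the fibroblast markers was 31.0 in mock and 30.6 in Flag15-2 knockout, against 22.2 and 21.4 in line 2, and that of the trophoblast markers was 47.5 and 141 against 26.5 and 42.8. The sum of 8 mesoderm markers was 0.740 and 0.808 in line 1 and 0.380 and 0.442 in line 2. The sum of 8 embryonic stem cell markers was higher in line 2, at 611 and 600 in line 1 and 685 and 677 in line 2. That sum includes Zfp42, also called Rex1, at 3.57 and 3.56 in line 1 and 6.39 and 6.35 in line 2. The other markers did not share a direction. Klf4 was lower in line 2, at 5.94 and 5.36 in line 1 and 5.26 and 4.88 in line 2. Esrrb and Dppa5a were slightly higher in line 2 under both vectors. Pou5f1, Sox2, Tdgf1 and Utf1 changed direction with the vector. The sum therefore does not show a rise of these markers as a group. The sum without Zfp42 was not analysed here. The part of these differences in the members' levels was not tested.

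In 5 of 34 members (4.43% of all features) both arrays of line 1 lay above wild type and both arrays of line 2 below it. These were Igf2, Impact, Magel2, Nnat and Plagl1, all paternally expressed, from 5 different loci. The opposite arrangement, line 2 above and line 1 below wild type, was seen in 0 of 34 members (4.9% of all features). Members on 1 chromosome or in 1 cluster are not independent, and the 5 lie in the H19-Igf2 and Snrpn-Ube3a clusters of chromosome 7 and on chromosomes 2, 10 and 18.

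Nnat, a small proteolipid of neural and endocrine cells that sits within an intron of Blcap, had the widest gap. It stood at -0.21 and -0.11 in wild type, at 0.36 in mock and 0.29 in Flag15-2 knockout of line 1, and at -6.75 and -5.65 in line 2, where it was not well above background. Line 2 thus had no measurable Nnat under either vector while line 1 stayed near wild type. Its host gene Blcap stood at 2.86 and 2.87 in wild type and between 3.09 and 3.30 on the knockout arrays.

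Plagl1, a zinc finger protein that is known to act on other imprinted genes, stood at 0.81 and 0.80 in wild type, at 1.73 and 1.29 in line 1 (mock, then Flag15-2) and at -0.03 and -0.24 in line 2. Igf2, the fetal growth factor, stood at 1.18 and 1.17 in wild type, at 1.46 and 2.5 in line 1 and at 0.52 and 0.34 in line 2. For Igf2 a second probe had the same order, with -0.52 on both wild-type arrays, -0.19 and 0.73 in line 1 and -1.26 and -1.66 in line 2. Impact, a regulator of translation, stood at 4.04 and 4.08 in wild type, at 4.45 and 4.70 in line 1 and at 3.48 and 3.43 in line 2. Magel2, a MAGE protein next to Ndn, stood at -0.85 and -0.78 in wild type, at -0.65 and -0.18 in line 1 and at -2.02 and -1.40 in line 2.

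A limma fit of line and vector over the 4 knockout arrays, added after the levels were seen, called none of the 34 members and 0 of 18764 features, which is 0% of all features (smallest adjusted p 0.0837). In it, 17 of 34 members and 5350 features had an unadjusted p under 0.05. Line 2 minus line 1 was -6.53 for Nnat (SE 0.37), -1.64 for Plagl1 (SE 0.11) and -1.29 for Magel2 (SE 0.10), each with an adjusted p of 0.0837. It was -1.12 for Impact (SE 0.13, adjusted p = 0.0883) and -1.55 for Igf2 (SE 0.39, adjusted p = 0.152). With normexp background correction 13 of 34 members were called, among 2682 of 18764 features, and with an intensity trend 13, among 3521 features. The difference of at least 2-fold with both vectors held in 3 members, Nnat, Plagl1 and Magel2 (6.08% of all features). The lines came from different mothers, so that line, mother and culture history cannot be told apart.

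**Figure D4:**
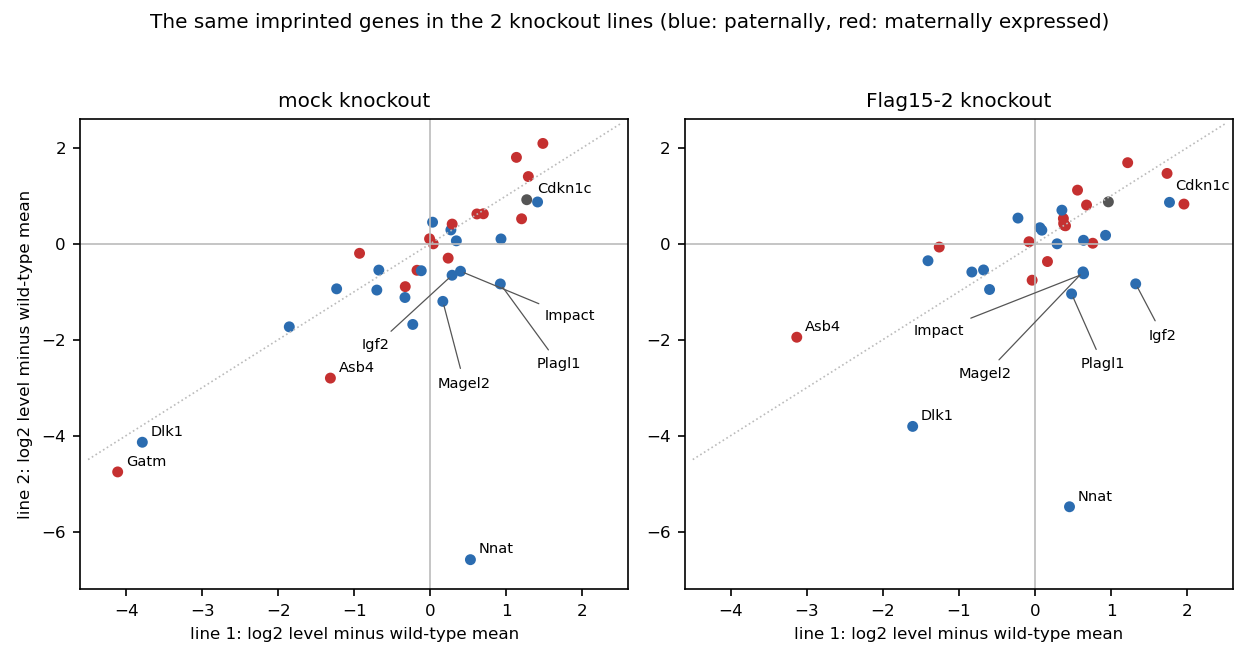
Log2 level minus the wild-type mean in knockout line 1 (x axis) and line 2 (y axis) for the 34 members, in mock (left) and Flag15-2 knockout (right), with a dotted line where both lines are equal and grey for Gnas. Nnat, Plagl1, Impact, Magel2 and Igf2 lie at the lower right of both panels, above wild type in line 1 and below it in line 2, and the lower right holds no maternally expressed gene in both panels.

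A further list of 40 imprinted genes was measured the same way: 34 were matched and 24 tested. The median in mock knockout was -0.20, against 0.05 over all features, and none was called in either other comparison. In mock knockout 1 rose and none fell, where 6.12% of all features were called, 2.47% higher, so that the count was near the background share. The 1 was Zfp64, a zinc finger protein, at 3.30 on both wild-type arrays, 4.46 and 4.53 in mock and 3.76 and 4.25 in Flag15-2 knockout, 2.29-fold higher in mock knockout (adjusted p = 0.0430, and 0.0637 with a replicate block). Mcts2, a retrogene expressed from the paternal copy within an intron of H13, chosen after its values were seen, stood at 2.85 and 2.78 in wild type, 4.03 and 3.62 in line 1 and 2.90 and 2.56 in line 2. Its host H13, a signal peptide peptidase, ran the other way, with 0.24 on both wild-type arrays, -0.92 and -0.42 in line 1 and 0.68 and 0.75 in line 2.

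Of 21 factors that set or keep imprinted marks, 19 were matched and tested, and all were well above background on all arrays. In mock knockout 1 of the 19 was called, where 6.12% of all features were called, 3.65% lower, so that the count was near the background share. The 1 was Dnmt3b, a DNA methyltransferase that writes new marks. It stood at 4.77 and 4.79 in wild type, 4.14 and 3.98 in mock and 4.41 and 4.36 in Flag15-2 knockout, 1.65-fold lower in mock knockout (log2 -0.72, adjusted p = 0.0372, and 0.0656 with a replicate block), and none of the 19 was called in the other comparisons. Dppa3, also called Stella, which shields maternal marks in the egg and early embryo, stood at 4.06 and 4.03 in wild type, 2.83 and 2.57 in mock and 3.03 and 3.70 in Flag15-2 knockout. All its knockout arrays were below wild type, 2.55-fold in mock knockout, without passing the test (adjusted p = 0.0593).

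Zfp57, the zinc finger protein that recruits TRIM28 to methylated copies, stood at 0.66 and 0.70 in wild type, 1.78 and 1.32 in mock and 1.32 and 0.76 in Flag15-2 knockout, with an adjusted p of 0.125 in mock knockout. Its knockout arrays were all above wild type, and line 1 was above line 2 under both vectors. Trim28, its partner, Dnmt1, which copies methylation at replication, and Uhrf1, which guides Dnmt1 to DNA, differed by 0.34, 0.11 and 0.46, none past the threshold.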

How the data were processed

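Total RNA was labelled with Cy3 and hybridised to Agilent whole mouse genome arrays, per the series' design text. Intensity values, background-subtracted on a linear scale, were extracted with Feature Extraction 10.7.3.1 and protocol GE1_107_Sep09, per the file headers. The authors deposited log2 values made with GeneSpring GX 11, per the series' design text, which names no normalization method. They were used as an alternative, and their column medians were 5.84 to 5.86 with a correlation above 0.999 with the scanner's values. After 1639 control spots of 45018 and outlier spots were removed and repeat spots averaged, 41059 of 41174 probes remained. Accessions given for the probes were looked up in the RefSeq table of GRCm38.p6, and 27143 probes had 1 of 18516 symbols. Promoters came from RefSeq on the same build.

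The 75th percentile (719 to 856 intensity units) was subtracted from each array's log2 signals. A probe had to be above background by the scanner software's call on at least 2 of 6 arrays, and the brightest stood for its symbol, which left 13298 genes and 5466 unnamed probes. All arrays entered 1 fit (limma 3.58.1, R 4.3.3, lmFit and eBayes, two-sided, Benjamini-Hochberg over 18764 features, threshold 0.05). P-values measure only the spread between these arrays. For normexp (offset 50) the median signal stood in for the mean signal, a column not used here. Figures were made with matplotlib 3.10.9.

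The members and lists were chosen with earlier results of these data known. Values on every array are given for members called in any comparison, or well above background on all arrays with a log2 difference of at least 1 in any comparison; other members named with array values were chosen after their values were seen. Same-numbered mock and Flag15-2 arrays share a knockout line, per the labels. The deviations from group means of same-numbered arrays correlated at -0.04 (wild type and mock), 0.01 (wild type and Flag15-2) and 0.59 (mock and Flag15-2), so that the number pairs the knockout arrays. Number 1 and 2 of wild type share only the mother with the knockout lines.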

Additional observations from a re-analysis of the deposited data

How the results depend on the processing

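The number of arrays and the near-identical wild-type pair limit every call, and the cause of the changes below was not tested. With normexp background correction 5 members were lower in mock knockout (2 as reported), 0 were higher with Flag15-2 against mock, and 53 features were called in that comparison (139 as reported) and 390 against wild type (100 as reported). Quantile normalization gave 222 and the authors' log2 values 223 features for Flag15-2 against wild type. Probes well above background on all 6 arrays left 0 members higher in both Flag15-2 comparisons, with 28 and 23 features (Gatm is left out there, and Cdkn1c had an adjusted p of 0.0522 against wild type). Without a filter, 0 members were higher in mock knockout and 0 in Flag15-2 against wild type, with 384, 48 and 6 features in the 3 comparisons. An intensity trend gave 4 members lower in mock knockout and 1761 features there (1149 as reported), and 301 for Flag15-2 against wild type. With a replicate block, 1 member was higher in mock knockout and 0 in each Flag15-2 comparison, with 494, 4 and 0 features; the last had 4338 features at an unadjusted p under 0.05. The 2 wild-type arrays as 1 sample left 0 members and 0 features in each comparison, with 2280, 1470 and 1564 features at an unadjusted p under 0.05. The 4 knockout arrays alone left 0 members and 0 features, with or without a replicate block (1470 and 3584 features at an unadjusted p under 0.05). Within slide 1, 1 member was higher in mock knockout. Leaving out 1 array gave 0 to 1 members higher and 0 to 3 lower in mock knockout, 0 to 0 higher in each Flag15-2 comparison, and 0 to 888, 0 to 112 and 0 to 5 features in the 3 comparisons. For the knockout lines, normexp and the intensity trend each called 13 members (0 as reported), among 2682 and 3521 features (0 as reported).

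Signs turned in values that were not called. Gatm in Flag15-2 against wild type (-0.10) became 0.091 with normexp and 0.0074 with the authors' values, and Phlda2 in Flag15-2 against mock (-0.01) became 0.041 with quantile normalization and 0.040 with the authors' values. Leaving out 1 array moved Gatm in Flag15-2 against wild type from -0.37 to 0.16. In Flag15-2 against mock it moved Phlda2 from -0.35 to 0.32, Asb4 from -1.23 to 0.26, Gnas from -0.35 to 0.0018, Peg10 from -0.28 to 0.63, Meg3 from -0.034 to 1.10 and Slc38a4 from -0.32 to 0.73. No called value of a member changed sign. The slide as a block could not be fitted for Flag15-2, which lies on a slide of its own.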
